A study of Mus musculus with 58 samples.

Results

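Nerves that run through a muscle bring myelin-forming Schwann cells into a dissected sample, and their genes were followed here in quadriceps muscle of mouse models of myotonic muscle disease. The genes were 8 known nerve and Schwann cell genes, chosen by symbol (Mbp, Pmp22, Mal, S100b, Sox10, Prx, Mag and Cnp). The supplied annotation paired 20 probe sets with 7 of them, out of 45037 probe sets and 18193 named genes in all. Mbp had 8 probe sets, Sox10 and Cnp had 3 each, Mal and S100b had 2 each, Pmp22 and Mag had 1 each, and Prx was not analysed here. The whole muscle was measured, so fewer Schwann cells, less RNA per Schwann cell and a change in other cells that make these RNAs cannot be told apart.

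Male mice from 3 experiments gave 58 Affymetrix arrays of 34 quadriceps samples. Experiment 1 held mice aged 6 months: 6 FVB wild-type mice, 6 of CUGexp transgenic line 20b and 6 of CUGexp transgenic line 41, both lines on the FVB background. CUGexp mice carry a transgene whose RNA contains an expanded CUG repeat; as background not given in the labels, these lines express it from a human skeletal actin transgene, which is active in muscle fibres. Experiment 2 held mice aged 3 months: 3 with a knockout of Clcn1, the muscle chloride channel gene whose loss causes myotonia, and 3 wild-type mice of the same BALB background. Experiment 3 held mice aged 3 months: 5 with a knockout of Mbnl1, a splicing regulator that CUG repeats sequester, and 5 FVB wild-type mice. Nothing in the labels says whether mice of a group were littermates or how much nerve lay in each dissected muscle. Median intensities of arrays lay between 398.4 and 437.8 (430A, experiment 1), between 298.5 and 317.3 (430A, experiment 2) and between 9.559 and 11.62 (430 2.0, experiment 3), so values are compared within an experiment only. Clcn1 itself differed by -1.42 in Clcn1-null muscle (log2 scale, SE 0.275, limma adjusted p = 0.0507), and Mbnl1 fell by 0.73 in Mbnl1-null muscle (SE 0.0638, limma adjusted p = 4.83e-05); both probe sets still gave signal, and whether they lie in the deleted part was not tested.

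Schwann cells wrap axons of peripheral nerves, and the myelinating ones stack their membrane into compact myelin. Mbp encodes myelin basic protein, which holds the cytoplasmic faces of the wraps together. Pmp22 encodes a small membrane protein of compact peripheral myelin whose dosage changes cause hereditary neuropathy. Mal encodes a membrane raft protein of myelin and epithelia. Mag and Cnp encode an adhesion protein and an enzyme of non-compact myelin. Sox10 is the transcription factor that sets Schwann cell identity and works with Egr2 to switch on myelin genes. S100b is a calcium-binding protein used as a Schwann cell marker. Prx, periaxin, links Schwann cell membrane to its skeleton.

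Upstream sequences are shown for 4 members because Sox10, a member itself, and Egr2 act on myelin genes. Mal and Pmp22 passed the test in 1 or more comparisons, and Mag and Cnp did not with all mice in the fit. RefSeq windows on GRCm38.p6 reach from 250 bases before to 50 bases after an annotated start. The search took in 11 windows of 6 of the 8 members. The windows shown are those of Mal, Pmp22 (the first of 4 annotated starts), Mag (the first of 3) and Cnp, printed 5′ to 3′ on the strand of the gene. The motifs searched, on both strands, were ACAAAG and ACAATG, cores that SOX proteins bind, and GCGTGGG and GCGGGGGCG, cores that EGR proteins bind. Capitals mark the matches, which do not overlap each other in these windows; CTTTGT is ACAAAG on the opposite strand.
Mal, chr2:127656646-127656945, minus strand: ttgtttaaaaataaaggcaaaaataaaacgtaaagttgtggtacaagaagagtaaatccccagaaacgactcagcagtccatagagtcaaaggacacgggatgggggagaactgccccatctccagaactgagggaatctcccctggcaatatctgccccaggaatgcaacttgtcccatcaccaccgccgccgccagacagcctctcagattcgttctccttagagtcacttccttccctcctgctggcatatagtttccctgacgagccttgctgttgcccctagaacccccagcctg
Pmp22, chr11:63128732-63129031, plus strand: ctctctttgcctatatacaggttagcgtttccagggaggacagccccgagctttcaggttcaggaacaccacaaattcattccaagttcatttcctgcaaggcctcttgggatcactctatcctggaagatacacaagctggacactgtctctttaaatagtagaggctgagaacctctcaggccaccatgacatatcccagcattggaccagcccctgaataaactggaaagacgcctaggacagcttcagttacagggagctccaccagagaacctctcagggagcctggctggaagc
Mag, chr7:30914814-30915113, minus strand: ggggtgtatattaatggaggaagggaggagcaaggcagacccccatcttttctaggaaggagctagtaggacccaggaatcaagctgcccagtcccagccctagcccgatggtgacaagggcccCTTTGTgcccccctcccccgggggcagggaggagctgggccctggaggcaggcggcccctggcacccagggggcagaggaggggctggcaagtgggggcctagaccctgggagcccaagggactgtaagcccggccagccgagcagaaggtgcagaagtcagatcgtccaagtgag
Cnp, chr11:100574689-100574988, plus strand: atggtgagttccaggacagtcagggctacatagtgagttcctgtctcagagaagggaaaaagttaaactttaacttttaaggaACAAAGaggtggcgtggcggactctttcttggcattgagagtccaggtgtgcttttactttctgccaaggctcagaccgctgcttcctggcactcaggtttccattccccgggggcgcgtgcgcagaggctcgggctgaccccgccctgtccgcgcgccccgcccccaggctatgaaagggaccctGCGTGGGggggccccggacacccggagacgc
Neither the Mal window nor any of the 4 Pmp22 windows held any of the 4 motifs. The Mag window held ACAAAG on the opposite strand at position -126 from the start site, and the Cnp window held ACAAAG at position -167 and GCGTGGG at base 20 of the transcript. Of 32851 such windows in the mouse genome, 18.7% held ACAAAG, 12.6% held ACAATG, 28.6% held either of these, 5.04% held GCGTGGG and 2.91% held GCGGGGGCG. A match describes letters and is not a binding site, and no match says only that the letters are not in the window. The second Mag window overlaps the first and held the same ACAAAG match on the opposite strand, there at position -67. The last Mag window held no motif. The Prx window held GCGTGGG on the opposite strand at position -161, and the S100b window held none of the motifs. Mbp was left out of this search, and Sox10 had no window among those supplied.

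In line 20b, Mbp and Mal fell, and no member probe set rose. Of the 20 member probe sets, 15 gave enough signal to be tested in experiment 1 (an intensity of at least 32, a log2 value of 5, on at least 6 arrays). Of these 15, 7 fell and 0 rose at a limma adjusted p under 0.05, against 9.56% of all 27330 probe sets tested that fell and 7.38% that rose. The 7 were 6 probe sets of Mbp and 1 of Mal, so they stand for 2 of the 6 genes tested. The median log2 change over the 15 was -0.482, beside -0.011 over all probe sets tested. In 4 of the 15 every line 20b mouse lay below every wild-type mouse, which was so for 5.26% of all probe sets. Without line 20b mouse 6, 4 of the 15 passed the test.

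Mbp was measured most brightly by probe set 1433532_a_at. Its log2 intensity ran from 11.99 to 12.94 in wild-type mice with a median of 12.54, and from 11.08 to 11.96 in line 20b mice with a median of 11.56. Every line 20b mouse was below every wild-type mouse, and the mean fell by 1.03 (SE 0.318, 2.04-fold lower, limma adjusted p = 0.0324). Without wild-type mice 1 and 2, which stood apart in Mal and in markers of fat, the change was -0.95 with an adjusted p of 0.108.

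A second Mbp probe set, 1419646_a_at, ran from 10.65 to 11.29 in wild-type mice and from 9.717 to 10.43 in line 20b mice, again with no overlap. The mean fell by 0.94 (SE 0.195, 1.92-fold lower, limma adjusted p = 0.00223). This change was still called without wild-type mice 1 and 2 (-0.90, adjusted p = 0.0148). Mbp 1456228_x_at fell by 1.02 (SE 0.319, adjusted p = 0.0343) with no overlap between groups. Its suffix, which Mbp 1436201_x_at and 1454651_x_at also carry, means that the probes of such a set may bind other transcripts too.

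Of the other Mbp probe sets, 1436201_x_at fell by 0.48, 1454651_x_at by 0.58 and 1451961_a_at by 0.54 in line 20b, with 1 or more mice of each group inside the range of the other. The line 20b values of 1454651_x_at (5.01 to 5.55) lay close to the limit of 32. Probe set 1425264_s_at differed by -0.66 (limma adjusted p = 0.065) and did not pass the test. The eighth, 1425263_a_at, was under an intensity of 32 on nearly all arrays and was not tested. The probe sets did not move as 1 measure from mouse to mouse. After the group means were removed, the correlation over the 18 mice was 0.979 between 1433532_a_at and 1456228_x_at, 0.859 between 1433532_a_at and 1419646_a_at, 0.445 between 1433532_a_at and 1436201_x_at, and -0.453 between 1433532_a_at and 1425264_s_at. All these probe sets were read on the same arrays.

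Mal had the largest difference of the members in line 20b with all mice in the fit, but not without wild-type mice 1 and 2. Its log2 intensity at 1417275_at was 8.071, 8.001, 6.432, 6.276, 6.198 and 5.894 in wild-type mice 1 to 6, and it ran from 4.90 to 5.76 in line 20b with a median of 5.35. All line 20b mice were below all wild-type mice, and wild-type mice 1 and 2 stood well above the other 4. The mean fell by 1.47 (SE 0.339, 2.78-fold lower, limma adjusted p = 0.00509). The line 20b values lay close to the limit of 32 (a log2 value of 5), and 1 mouse was under it, so the size of the fall is uncertain. The second Mal probe set, 1432558_a_at, was under an intensity of 32 on every array and was not tested.

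The same 2 wild-type mice stood apart in markers of fat. The summed signal of the 12 adipocyte markers with a probe set (log2 of the sum) was 17.54 in wild-type mouse 1 and 17.68 in mouse 2, 16.57 to 16.72 in the other 4 wild-type mice, 16.44 to 16.61 in line 20b and 16.12 to 17.02 in line 41. In line 20b, 5 of the 11 adipocyte markers tested fell and 0 rose, with a median of -1.172, against 9.56% of all probe sets that fell. Adipoq, the adipocyte hormone adiponectin, fell by 1.75 and Cidec, a lipid droplet protein, by 1.59. None of the 12 markers was under an intensity of 32 on all arrays of experiment 1. Without wild-type mice 1 and 2, 1 of the 11 markers fell in line 20b, and the change of Mal was -0.86 (SE 0.207, 1.82-fold lower, limma adjusted p = 0.01), still with no overlap. Mbp 1433532_a_at (-0.95), 1419646_a_at (-0.90) and 1456228_x_at (-0.89) then differed by more. In line 41, limma called 0 of the 11 markers, and 3 had an unadjusted p under 0.05. The part of fat in the Mal value was not tested beyond leaving these mice out.

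**Figure D1:**
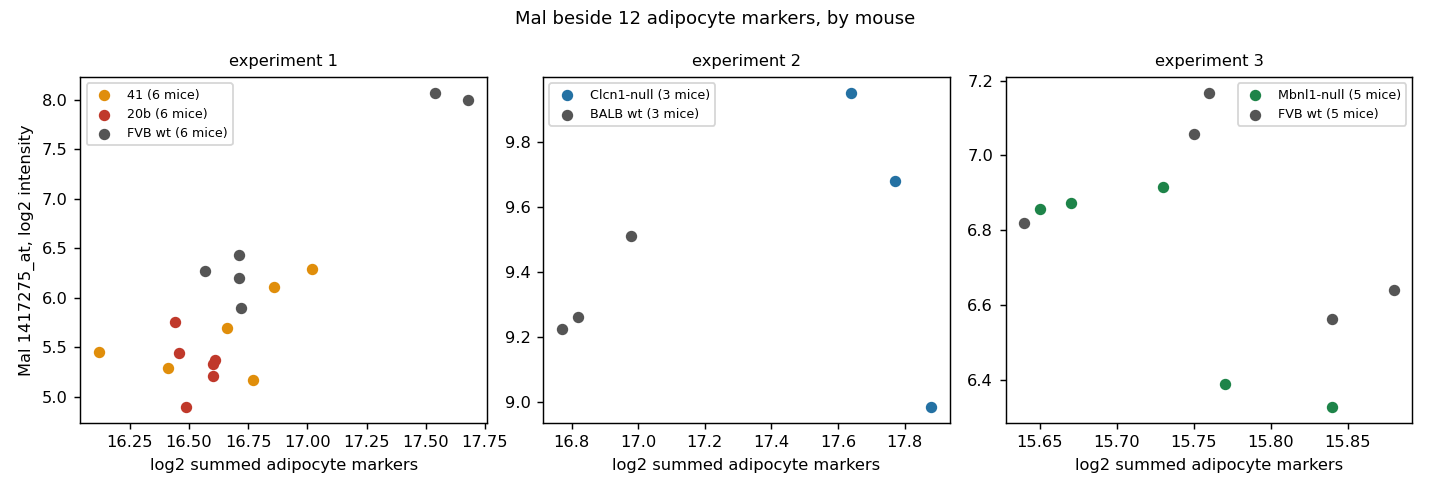
Log2 intensity of Mal (vertical axis) against the log2 of the summed signal of 12 adipocyte markers (horizontal axis), 1 point per mouse and 1 panel per experiment, with each panel on its own axes. In experiment 1, wild-type mice 1 and 2 sit apart at 17.54 and 17.68 on the horizontal axis and at 8.071 and 8.001 on the vertical one.

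Leaving out wild-type mice 1 and 2 also changed the count of members. Then 5 of the 15 member probe sets passed the test in line 20b, against 13.9% of all probe sets: Mal and 3 probe sets of Mbp (1419646_a_at, 1436201_x_at and 1454651_x_at) fell, and Cnp rose at 1437341_x_at by 0.31 (limma adjusted p = 0.0193). With all 18 mice this Cnp probe set differed by 0.14 (adjusted p = 0.462).

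Pmp22, the compact myelin membrane protein, was lower in line 20b by a margin that did not pass the test. Its log2 intensity ran from 12.73 to 13.05 in wild-type mice with a median of 12.91, and from 12.24 to 12.80 in line 20b with a median of 12.51. Of the 6 line 20b mice, 5 were below all wild-type mice. The difference was -0.37 (SE 0.128, 1.29-fold lower, limma adjusted p = 0.0559). Over the alternatives run for Pmp22, the adjusted p ranged from 0.0141, with only the 2 groups in the fit, to 0.204, without wild-type mice 1 and 2.

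No other member passed the test between line 20b and wild type with all mice in the fit. Sox10 at 1451689_a_at ran from 9.921 to 10.33 in wild-type mice and from 9.891 to 10.23 in line 20b, a difference of -0.05 (SE 0.0897, limma adjusted p = 0.766). Its second tested probe set, 1424985_a_at, differed by -0.15 (adjusted p = 0.661), and the third was under an intensity of 32 throughout. Mag at 1460219_at ran from 8.441 to 9.126 in wild-type mice and from 7.867 to 9.210 in line 20b, a difference of -0.04 (adjusted p = 0.924). The 3 Cnp probe sets differed by 0.14, 0.24 and -0.002. At 1418980_a_at, the one that differed by 0.24, 4 of the 6 line 20b mice were above all wild-type mice (unadjusted p = 0.0442, limma adjusted p = 0.164). S100b was under an intensity of 32 in every wild-type and line 20b mouse at both of its probe sets and was not tested.

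**Figure D2:**
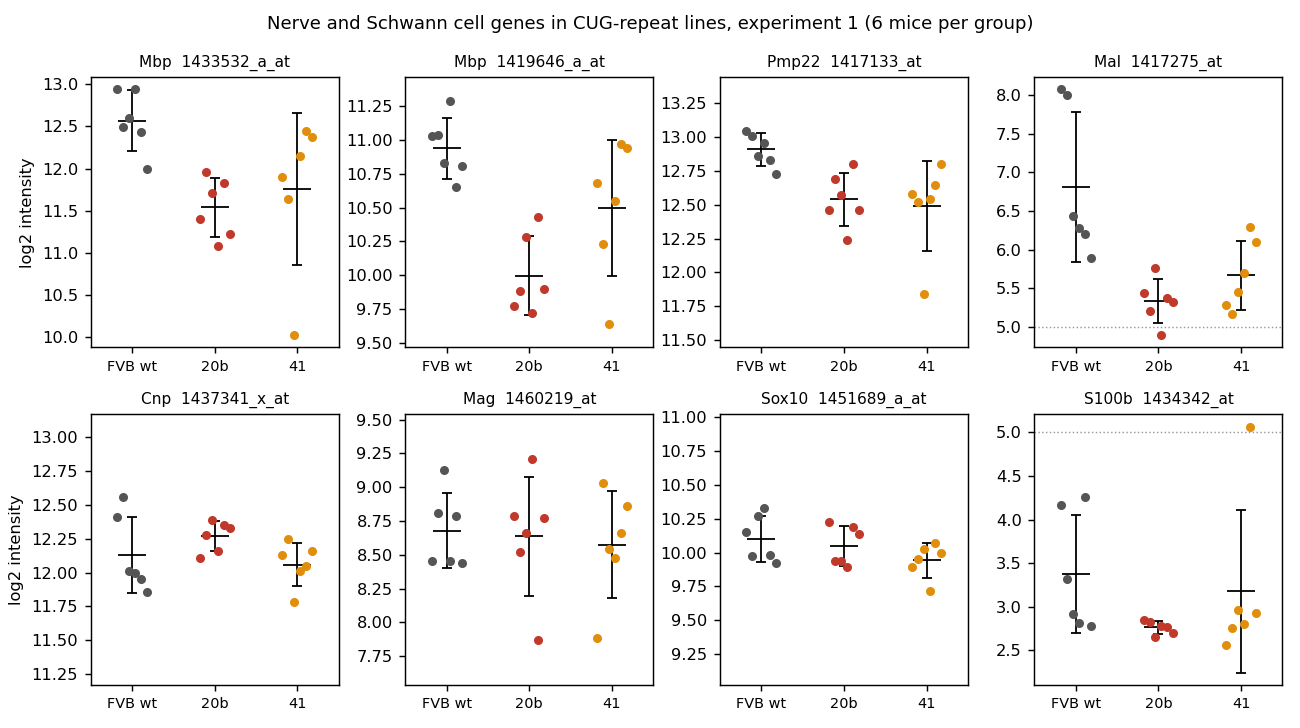
Log2 intensity (vertical axis) of 8 probe sets of 7 member genes in experiment 1, 1 point per mouse, 6 mice per group, with the group mean and SD as a bar; each panel has its own axis, and a dotted line marks an intensity of 32 where it falls inside the panel. Mbp and Mal are lower in line 20b with no overlap with wild type, line 41 mouse 3 sits at 10.02 in the first Mbp panel, and S100b is under the dotted line except in 1 line 41 mouse.

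In line 41, Mal and 1 Mbp probe set fell, with the same wild-type mice as controls. Of the 15 member probe sets tested, 2 fell (Mal 1417275_at and Mbp 1454651_x_at) and 0 rose, against 4.61% of all probe sets that fell and 3.88% that rose. The median over the 15 was -0.311, beside -0.004 over all probe sets. No member probe set had line 41 and wild-type mice fully apart, against 3.88% of all probe sets. The count was 0 without any 1 of line 41 mice 1, 2 and 4 or wild-type mice 1 and 2, 1 without line 41 mouse 3 or any 1 of wild-type mice 3, 4 and 5, and 3 without line 41 mouse 6.

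Mal ran from 5.17 to 6.29 in line 41 with a median of 5.58, again close to the limit of 32, and overlapped the wild-type range. Its mean fell by 1.14 (SE 0.339, 2.21-fold lower, limma adjusted p = 0.0439). Without wild-type mice 1 and 2 it differed by -0.53 (SE 0.207, 1.45-fold lower, adjusted p = 0.161) and did not pass the test, and without wild-type mouse 1 alone it differed by -0.89 (adjusted p = 0.0959). Without these 2 mice, 0 of the 15 member probe sets passed limma's test in line 41, against 5.25% of all probe sets, and 5 had an unadjusted p under 0.05.

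Mbp at 1433532_a_at was 11.90, 11.64, 10.02, 12.15, 12.45 and 12.38 in line 41 mice 1 to 6. Mouse 3 was far below the others, 3 of the 6 mice lay below the wild-type range and 3 lay inside it. The difference of means was -0.81 (SE 0.318, limma adjusted p = 0.133), and -0.46 without mouse 3 (SE 0.197, adjusted p = 0.191). Mbp 1456228_x_at differed by -1.003 (adjusted p = 0.0598), and by -0.67 without mouse 3 (adjusted p = 0.0767). Mbp 1454651_x_at, the 1 Mbp probe set called, fell by 0.46 (SE 0.139, adjusted p = 0.0458), in a range close to the limit of 32 (4.97 to 5.72 in line 41 and 5.54 to 6.09 in wild type). It did not pass without wild-type mice 1 and 2 (-0.40, adjusted p = 0.171).

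Pmp22 was 12.58, 12.52, 11.84, 12.54, 12.65 and 12.80 in line 41 mice 1 to 6, and mouse 3 was again the lowest. The difference from wild type was -0.42 (SE 0.128, 1.33-fold lower, limma adjusted p = 0.052), and -0.29 without mouse 3 (SE 0.0895, adjusted p = 0.0678). Sox10, Mag and Cnp differed from wild type by -0.16 to 0.19 over their 6 tested probe sets, and none passed the test. S100b reached 5.07 in line 41 mouse 5 and was under 32 in the other 5.

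The lines were also set against each other. Of the 15 member probe sets, 0 passed limma's test between line 20b and line 41, beside 5.91% of all probe sets, and 2 had an unadjusted p under 0.05. These were Mbp 1419646_a_at, lower in line 20b by 0.51 (SE 0.195, adjusted p = 0.15), and Cnp 1449296_a_at, lower by 0.14 (SE 0.0614, adjusted p = 0.205). Mal differed by -0.33 (SE 0.339, adjusted p = 0.685) and Pmp22 by 0.05 (SE 0.128, adjusted p = 0.904). More Mbp probe sets passed against wild type in line 20b than in line 41, but no Mbp probe set passed the test between the lines.

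**Figure D3:**
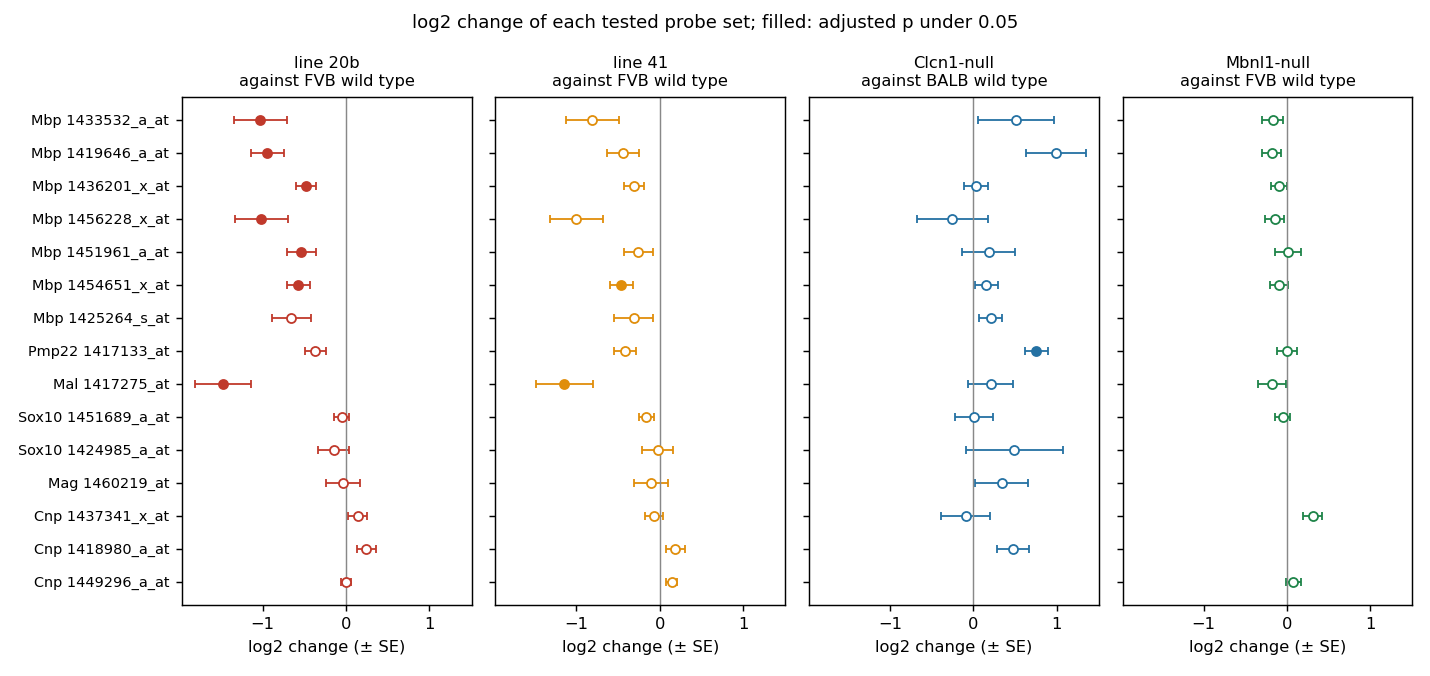
Log2 change with its standard error (horizontal axis) of each tested member probe set (rows) in the 4 comparisons with wild type; filled points passed limma's test at an adjusted p under 0.05. The filled points are 7 in line 20b and 2 in line 41, all below 0, and 1 in Clcn1-null muscle, Pmp22 at 0.75.

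In Clcn1-null muscle, Pmp22 was the 1 member that rose. Its log2 intensity was 12.89, 13.15 and 13.23 in the 3 BALB wild-type mice, and 13.98, 13.81 and 13.73 in the 3 nulls. All 3 null mice were above all 3 wild-type mice. The mean rose by 0.75 (SE 0.138, 1.68-fold higher, limma adjusted p = 0.0443). Leaving out any 1 of the 6 mice kept the change between 0.65 and 0.82, but without any of 5 of them the call was lost (adjusted p from 0.0973 to 0.171); without Clcn1-null mouse 3 it was kept (adjusted p = 0.0323).

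Over all members in Clcn1-null muscle, 1 of 14 tested probe sets rose and 0 fell, against 1.72% of all 25944 probe sets that rose and 2.49% that fell. The median over the 14 was 0.208, beside 0.033 over all probe sets. The null mice lay fully above the wild-type mice in 2 of the 14, Pmp22 and Mbp 1419646_a_at, and with 3 mice a group 13.9% of all probe sets did so. Mbp 1419646_a_at was 10.79, 10.73 and 10.52 in null mice and 9.013, 10.41 and 9.635 in wild-type mice, a difference of 0.99 (SE 0.355, limma adjusted p = 0.211) that did not pass the test.

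The remaining members overlapped between Clcn1-null and wild-type mice. Mbp 1433532_a_at was 13.64, 13.39 and 12.36 in null mice and 11.94, 13.22 and 12.70 in wild-type mice (difference 0.51, SE 0.453, adjusted p = 0.573). Mal was 9.68, 9.95 and 8.99 in null mice and 9.26, 9.51 and 9.22 in wild-type mice (difference 0.21, SE 0.269, adjusted p = 0.697). Sox10 1451689_a_at differed by 0.01 (SE 0.232), Mag by 0.34 (SE 0.316) and the 2 tested Cnp probe sets by -0.09 and 0.48, with none past the threshold. S100b was under 32 in all 6 mice.

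Adipocyte and muscle fibre markers moved in the same comparison as Pmp22. In Clcn1-null muscle 6 of 10 tested adipocyte markers rose and 0 fell, with a median of 1.926. Of all probe sets, 1.72% rose and 2.49% fell there. The log2 summed signal of the adipocyte markers was 17.64 to 17.88 in null mice and 16.77 to 16.98 in wild-type mice. Of the 12 markers, Lep and Acvr1c were under 32 on all arrays. Of the 12 endothelial markers 0 passed limma's test and 1 had an unadjusted p under 0.05, with a median of 0.151. Cd68, a macrophage marker, rose by 3.25, the 1 of 9 macrophage and leukocyte markers called. Of 10 muscle fibre markers 1 rose (Myh2, by 0.52) and 3 fell, with a median of -0.574: the slow myosin gene Myh7 fell by 4.11, Actn3 by 1.92 and the slow troponin gene Tnnt1 by 1.76. Their log2 summed signal was 18.51 to 19.12 in null mice and 19.10 to 19.26 in wild-type mice. Of 5 tested perineurial and endoneurial markers limma called 0 (1 had an unadjusted p under 0.05), with a median of 0.534 and a log2 summed signal of 14.22 to 15.00 in null mice and 13.58 to 14.27 in wild-type mice. The part of these cell types in the Pmp22 value was not tested.

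In Mbnl1-null muscle no member passed the test in the main fit, which had no replicate block. With the replicate number as a block, 1 member probe set did, and the share of all probe sets called with the block is not given here. Of 11 tested probe sets of 5 genes, 0 were called by limma, against 16.2% of all 16229 probe sets, and 1 had an unadjusted p under 0.05. No member probe set had the groups fully apart, against 14.3% of all probe sets. The median over the 11 was -0.093, beside -0.022 over all probe sets. Mbp 1433532_a_at was 10.59, 10.46, 10.75, 10.39 and 10.62 in null mice and 10.60, 10.92, 11, 10.80 and 10.37 in wild-type mice, so the groups overlapped (difference -0.17, SE 0.123, adjusted p = 0.372). Pmp22 was 10.56, 10.50, 10.91, 10.46 and 10.42 in null mice and 10.31, 10.69, 10.80, 10.62 and 10.44 in wild-type mice, and the means were 10.57 in both groups (SE of the difference 0.119).

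The other members did not pass the test in Mbnl1-null muscle either. Mal was 6.33, 6.86, 6.92, 6.39 and 6.87 in null mice and 6.64, 7.06, 7.17, 6.56 and 6.82 in wild-type mice (difference -0.18, SE 0.165, adjusted p = 0.51). Cnp 1437341_x_at was 9.600, 9.478, 9.968, 9.603 and 9.782 in null mice and 9.151, 9.373, 9.475, 9.326 and 9.574 in wild-type mice; 4 of the 5 null mice were above all wild-type mice (difference 0.31, SE 0.112, adjusted p = 0.0873). Sox10 1451689_a_at differed by -0.05 (SE 0.0875, adjusted p = 0.735). Mag and S100b were under 32 on all 10 arrays and were not tested.

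**Figure D4:**
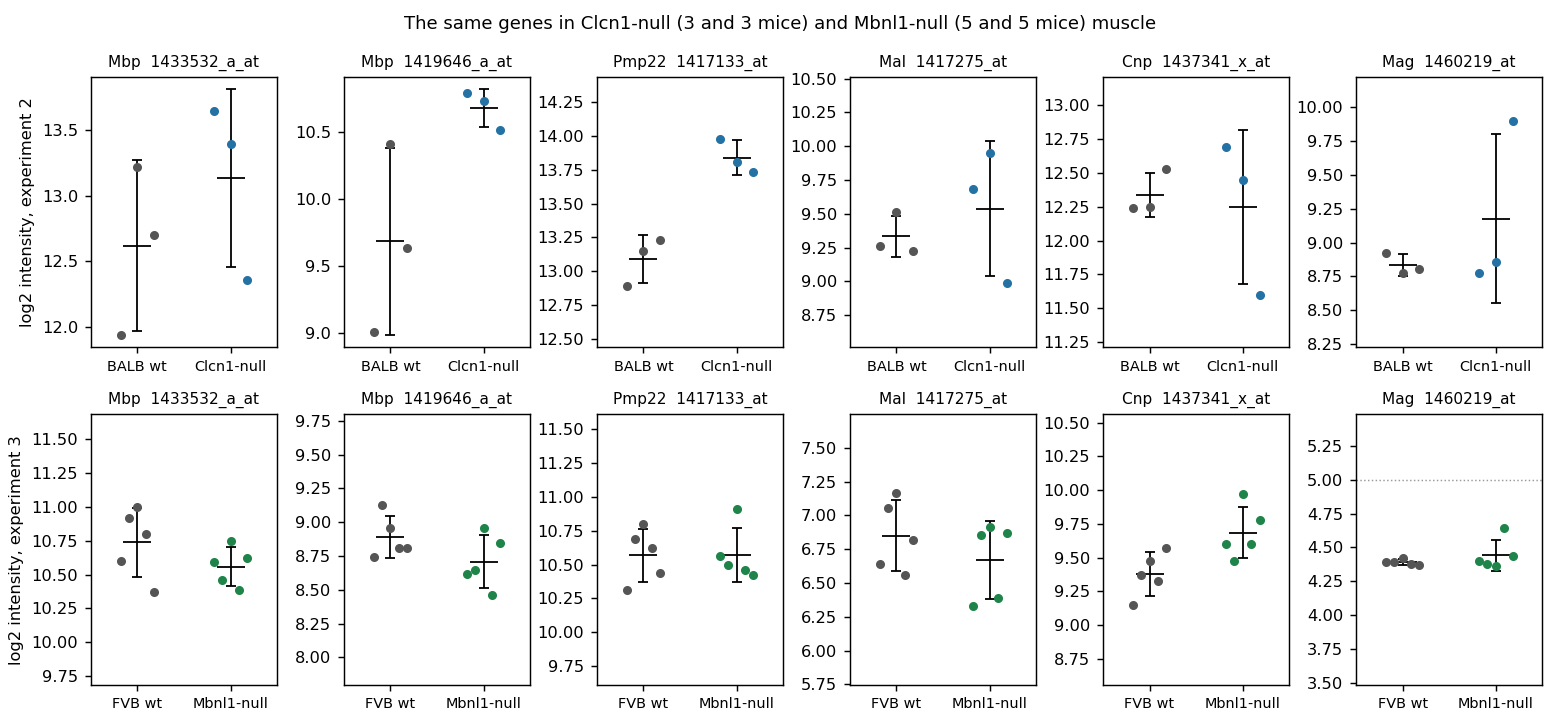
Log2 intensity (vertical axis) of 6 member probe sets in experiment 2 (upper row, 3 mice per group) and experiment 3 (lower row, 5 mice per group), 1 point per mouse, with the group mean and SD as a bar; each panel has its own axis, and a dotted line marks an intensity of 32 where it falls inside the panel. Pmp22 in the upper row is the panel in which the called groups do not overlap, at 13.73 to 13.98 in null mice and 12.89 to 13.23 in wild-type mice.

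Mpp6, from a list of other peripheral myelin genes, rose in both CUGexp lines and in Mbnl1-null muscle. Of 20 further peripheral myelin genes, 14 could be tested in line 20b, and 1 rose and 1 fell, with a median of -0.063. Of all probe sets, 7.38% rose and 9.56% fell there. Without wild-type mice 1 and 2, 2 of the 14 rose and 0 fell. With all mice, Mpp6, a membrane scaffold protein that muscle also expresses, rose by 0.92 and Gpm6b, a membrane glycoprotein, fell by 0.62. In line 41, Mpp6 rose by 0.41 and 0 of the 14 fell. In Clcn1-null muscle 0 of 14 passed limma's test (3 had an unadjusted p under 0.05), and in Mbnl1-null muscle 3 of 6 rose: Mpp6 by 0.71, Aspa by 0.73 and Cd9 by 0.41, against 16.2% of all probe sets called there in either direction. The log2 summed signal of the 16 genes with a probe set, Mpp6 among them, was 13.47 to 13.60 in FVB wild-type mice of experiment 1, 13.90 to 14.21 in line 20b and 13.62 to 13.80 in line 41. It was 11.99 to 12.26 in wild-type and 12.53 to 12.76 in Mbnl1-null mice. Each of these mutant groups lay above its wild-type mice with no overlap, and so did Mpp6 alone. Mpp6 ran from 12.30 to 12.57 in wild-type mice of experiment 1, 13.22 to 13.58 in line 20b and 12.68 to 12.94 in line 41. It ran from 10.36 to 10.57 in wild-type and 11.02 to 11.38 in Mbnl1-null mice. Bright genes weigh most in such a sum, and the sum without Mpp6 was not tested.

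Among regulators and receptors of Schwann cells, 3 of 13 tested rose and 1 fell (Itgb4, by 0.63) in line 20b, with a median of 0.033. Of all probe sets, 7.38% rose and 9.56% fell there. Erbb3, the receptor that takes up axonal neuregulin signals, rose by 0.69 (SE 0.191, limma adjusted p = 0.0176). Nab2, a partner of EGR factors, rose by 1.49 (adjusted p = 0.0124), and Art3 rose by 0.44. Egr2, the factor that works with Sox10 on myelin genes, differed by 0.12 (SE 0.236, adjusted p = 0.784). In line 41, 1 of 13 fell (Itga6, by 0.68) and 0 rose, against 4.61% of all probe sets that fell. Without wild-type mice 1 and 2, 0 of the 13 fell in line 41, and 5 had an unadjusted p under 0.05 by limma. In Clcn1-null muscle limma called 0 of 14 (2 had an unadjusted p under 0.05). In Mbnl1-null muscle 1 of 10 rose (Art3, by 0.63), against 16.2% of all probe sets called there in either direction.

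Some genes of non-myelinating and repair Schwann cells rose. In line 20b 3 of 8 tested rose and 0 fell, against 7.38% of all probe sets that rose: Ncam1 by 1.14, Shh by 0.94 and Jun by 0.55. In line 41 2 of 8 rose, Ncam1 by 0.76 and Jun by 0.51 (1 of 8 without wild-type mice 1 and 2), against 3.88% of all probe sets that rose. In Clcn1-null muscle limma called 0 of 7 (0 with an unadjusted p under 0.05), and in Mbnl1-null muscle Ncam1 rose by 1.60. Ncam1, a cell adhesion molecule, and Jun, a transcription factor, are also made by muscle fibres and other cells. Gap43, Artn, Gdnf and Olig1 were under 32 on all arrays of experiment 1. Shh was under 32 on all arrays of experiments 2 and 3 and was not tested there. In a list of denervation and junction genes that also holds Ncam1, 7 of 19 rose and 1 fell in line 20b, and 5 of 19 rose and 1 fell in line 41. In Mbnl1-null muscle 5 of 17 rose and 0 fell, against 16.2% of all probe sets called there in either direction. Among the 5 were Ankrd1 (by 3.65), Cdkn1a (by 2.19) and Nes (by 1.66). In Clcn1-null muscle limma called 0 of 18 (7 had an unadjusted p under 0.05). With these lists refitted after wild-type mice 1 and 2 were left out, the junction list had 7 higher and 2 lower calls in line 20b, and 1 higher and 2 lower in line 41.

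Axon RNA itself gave little signal. Of 17 axon and neuron genes with a probe set, 9 were under 32 on all arrays of experiment 1, among them the neurofilament genes Nefl and Nefm and the acetylcholine enzyme gene Chat. In line 20b 1 of the 7 tested fell (Sncg, by 1.22, limma adjusted p = 0.0452), and in line 41 limma called 0 of 7, with 1 at an unadjusted p under 0.05. Sncg ran from 8.972 to 12.22 in wild-type mice, and without wild-type mice 1 and 2 limma called 0 of the 7 in line 20b (1 had an unadjusted p under 0.05). Of 8 genes of oligodendrocytes, the myelin cells of the brain, 4 were under 32 on all arrays of experiment 1. All 8 were so in experiment 3. Mog, Mobp, Opalin and Mag, a member that is also in this list, reached 32 on at least 1 array of experiment 1.

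Some markers of blood vessels fell in the same comparisons as Mbp and Mal. Of 12 endothelial markers, 7 fell in line 20b (median -0.487) and 4 in line 41 (median -0.366), and 0 rose in either. Of all probe sets, 9.56% fell in line 20b and 4.61% in line 41. Their log2 summed signal was 14.54 to 14.84 in wild-type mice, 14.06 to 14.32 in line 20b and 14.17 to 14.45 in line 41, with no overlap with wild type, and none of the 12 was under 32 on all arrays. Without wild-type mice 1 and 2, 4 of the 12 fell in line 20b and 2 in line 41. Of 7 tested perineurial and endoneurial markers, which mark the sheath and inner tissue of nerves, Itgb4 fell by 0.63 and Apod by 0.61 in line 20b. Tjp1 fell by 0.53 in line 41. Itgb4 is also in the list of Schwann cell regulators and receptors, where the same probe set was counted. Without wild-type mice 1 and 2, the perineurial and endoneurial counts were 2 in line 20b and 0 in line 41 (limma, 2 at an unadjusted p under 0.05). Of 11 fibroblast and tendon markers 1 fell in line 20b (0 by limma without wild-type mice 1 and 2, with 2 at an unadjusted p under 0.05). Of 8 macrophage and leukocyte markers limma called 0 in line 20b (2 at an unadjusted p under 0.05), and Cd68 rose by 1.46 in line 41. Of 10 muscle fibre markers 1 rose and 2 fell in line 20b. The part of these cell types in the member values was not tested.

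Within the groups of experiment 1, Mbp and Pmp22 varied together from mouse to mouse. The brightest tested probe set of each of 6 members was taken, group means were removed, and the 15 pairs were compared over 18 mice with 100000 permutations of mice within groups. Mbp and Pmp22 had a Pearson r of 0.935 and a Spearman rho of 0.884 (permutation p = 2e-05 for each, 0.0003 after Benjamini-Hochberg adjustment over the 15 pairs). Without the 2 mice farthest from the median of Mbp, 1 of them line 41 mouse 3, r was 0.832, and without line 41 mouse 3 alone it was 0.822. In experiment 3 the same pair had r = 0.772 and rho = 0.806 over 10 mice (permutation p = 0.0141 and 0.0157, adjusted 0.141 and 0.157 over 10 pairs).

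**Figure D5:**
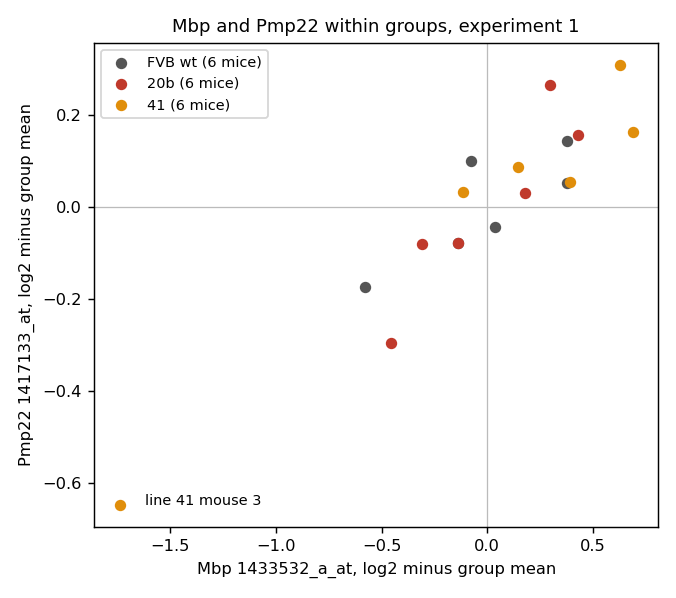
Log2 intensity of Pmp22 (vertical axis) against that of Mbp (horizontal axis) after the mean of each group was removed, 1 point per mouse, 6 mice in each of 3 groups of experiment 1. The points rise together (r = 0.935), and line 41 mouse 3 lies at the lower left; without it r is 0.822.

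Most other pairs did not pass the test. The median r over the 15 pairs was 0.0797; it was 0.251 without line 41 mouse 3, and 0.366 over the 10 pairs of experiment 3. By r, 2 of the 15 passed after adjustment, the second being Pmp22 with Cnp (r = 0.619, rho = 0.633, permutation p = 0.00126 and 0.00393, adjusted 0.00945 and 0.0208). Without line 41 mouse 3, Pmp22 with Cnp gave r = 0.533 (permutation p adjusted to 0.0707). Pmp22 with Mal passed by rho (0.593, adjusted permutation p = 0.0208) and not by r (0.424, adjusted 0.0802), and without line 41 mouse 3 it passed by r (0.566, adjusted 0.028) and not by rho (0.586, adjusted 0.0832). Mal with Cnp had r = 0.737, which fell to 0.478 without wild-type mice 1 and 2. In the 9 pairs that hold Sox10 or Mag, r lay between -0.271 and 0.0862, and none passed. Without line 41 mouse 3, r moved to 0.384 for Mbp with Sox10, 0.35 for Pmp22 with Sox10, -0.314 for Mbp with Mag and -0.466 for Pmp22 with Mag, and none of these passed after adjustment.

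Among the tested probe sets of experiment 1 with 1 gene symbol, Pmp22 was the gene most like Mbp 1433532_a_at over the 18 mice apart from Mbp itself (r = 0.935), ahead of Abca8a (r = 0.889) and Oaf (r = 0.86). The gene most like Pmp22 was Mbp, at 1456228_x_at (r = 0.936), followed by Cflar (r = 0.897). Mal was closest to Ntrk3 (r = 0.902), Carhsp1 (r = 0.902) and Pparg (r = 0.9), the last the master regulator of adipocytes. For the mean of the standardised values of the 6 members, the 10 closest genes were Ppp1r9a, Jkamp, Tmeff2, Tmem183a, Ahcyl1, Prkar2b, Cav1, Fah, Epb41l2 and Pdzd2, with r from 0.819 to 0.884. In experiment 3 their r ranged from -0.612 for Fah to 0.56 for Cav1, and Ppp1r9a was not tested there.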

How the data were processed

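RNA from whole quadriceps was taken up in Tri-Reagent and made into biotin-labelled cRNA, per the labels' protocols. Each deposited value is a linear intensity of 1 probe set; the submitters' processing notes name GCRMA, whose version and settings are not given in the sources used here. GCRMA subtracts a modelled background, so dim probe sets are compressed towards a floor.

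Intensities were put on the log2 scale, and where a mouse had a 430A and a 430B array, both were joined. A probe set was tested if its log2 value reached 5 (an intensity of 32) on at least the number of arrays in the smallest group. Each experiment was fitted over all such probe sets with limma 3.58.1 in R 4.3.3 (lmFit, eBayes with a trend, 1 mean per group), two-sided, with Benjamini-Hochberg adjustment and a call at an adjusted p under 0.05. The fit was tested on simulated data. Lines 20b and 41 share their wild-type mice. The labels number the mice and say nothing of litters, so p-values measure the spread between these samples, and the number of arrays limits precision.

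All member probe sets were reported. For other lists a gene was represented by its probe set with the highest mean over the 3 experiments, and the rule named Egr2 and Erbb3 whatever their values, plus up to 4 called genes per list with the largest change against wild type. Members and lists were chosen with earlier results of these data known. Of 45037 probe sets, 34945 had 1 gene symbol, 932 several and 9160 none. Promoter windows came from RefSeq (GRCm38.p6).

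Alternatives varied the normalisation, filter, offset, probe sets, array weights, eBayes trend, groups in the fit, replicate block, threshold and mice.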

Additional observations from a re-analysis of the deposited data

Results flagged for a closer look

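In each group of 5 or 6 mice, the highest and lowest mouse of every tested member probe set was set against the rest by Dixon's ratio of gap to range. Of 67 groups examined, 6 had an outlying mouse, and chance alone gives about 1 in 20. Line 41 mouse 3 was low in 3 of the 6: at 10.02 for Mbp 1433532_a_at (the other 5 mice lay between 11.64 and 12.45), at 7.093 for Mbp 1456228_x_at (8.635 to 9.496) and at 11.84 for Pmp22 1417133_at (12.52 to 12.80). Mbnl1-null mouse 3 was high for Pmp22 at 10.91 (10.42 to 10.56). Line 20b mouse 5 was low for Sox10 1424985_a_at at 7.911 (8.656 to 9.062), and line 20b mouse 3 was low for Cnp 1449296_a_at at 8.301 (8.434 to 8.477).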

How the results depend on the processing

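Changes of the member probe sets called in the main analysis kept their direction under every alternative run (232 values), and 73 of those values no longer passed the threshold. The uncalled ones became called in 21 of 1290 values and changed sign while uncalled in 61. Mal, Mbp 1419646_a_at, 1436201_x_at and 1454651_x_at kept their call in line 20b throughout, apart from the settings in which a probe set was not tested; the other calls did not. The count of member probe sets called in line 20b (7) was 4 with no filter, 3 of 6 genes with 1 probe set per gene and 4 at an adjusted p under 0.01. The count in line 41 (2) was 0 after a median shift, 0 with no filter, 1 with 32 added to the intensity, 1 with array weights, 0 with only the 2 groups compared, 0 at an adjusted p under 0.01 and 0 without wild-type mice 1 and 2. Between the lines (0) it was 1 with array weights. In Clcn1-null muscle (1) it was 0 after a median shift, 0 with no filter, 4 with array weights and 0 at an adjusted p under 0.01. The array weights of 1 experiment stopped before convergence. The calls over all probe sets under each of these settings are not given beside the counts, so a count alone shows no change particular to the members. With fewer or more probe sets tested the adjustment itself changes. For the other settings the cause was not tested.

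With the replicate number as a block, the counts were 4 in line 20b, 0 in line 41 and 0 between the lines. They were 0 in Clcn1-null and 1 in Mbnl1-null muscle. The share of all probe sets called with the block is not given beside these counts. Same-numbered mice had a correlation over 0.1 in 5 of 18 pairs of experiment 1, 0 of 3 of experiment 2 and 4 of 5 of experiment 3. In experiment 3 their mean correlation was 0.175, beside -0.044 for mice with different numbers. Mouse 3 had the highest summed signal of denervation and junction genes in each group of experiment 1 (15.52 in wild type, 16.04 in each line). The labels do not say that numbers pair the mice, so the main fit left them out, and the counts depend on this choice. Leaving out 1 mouse at a time gave counts of 4 to 8 in line 20b, 0 to 3 in line 41, 0 to 1 between the lines, 0 to 1 in Clcn1-null and 0 to 0 in Mbnl1-null muscle. The median correlation over the 15 member pairs (0.0797) was 0.0543 to 0.115 after quantile normalisation, with 32 added or without wild-type mice 1 and 2, and 0.251 without line 41 mouse 3. The settings without that mouse, and the list counts without wild-type mice 1 and 2, were chosen after seeing the data. Values near an intensity of 32, and groups of 3 mice in experiment 2, limit what could be detected.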
